A study of Danio rerio with 9 samples.

Results

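Cells of an epithelium are held together and sealed by junctions. Claudins, with occludin and the zonula occludens proteins (tjp genes), form tight junctions, which in the ear keep the potassium-rich endolymph apart from the perilymph. Cadherins carry adhesion between cells, and connexins assemble into gap junctions, through which ions and small molecules pass between the supporting cells of the ear. The genes described here were the probes whose gene name on the array began with cldn, cx, gja to gje, tjp, ocln, jam, cdh, epcam, tacstd, dsp, jup or pkp, with cdh23 and cldnk left out, or whose description contained claudin or connexin. There were 52 such probes of 21495, for 44 gene names or transcripts. By role they were 21 claudin probes, 18 connexin probes, 5 cadherin probes, 3 for plakoglobin (jup), 3 for tacstd, and 2 for other tight junction genes (tjp3 and jam3). Names are those of the array, with the present RefSeq symbol in parentheses where a gene is described and its symbol differs.

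RNA came from whole inner ears (saccule, lagena, utricle and semicircular canals) of adult zebrafish, Danio rerio, with strain and allele not stated. Control fish stayed in the exposure chamber with the sound off. The other groups, Day 2 and Day 4, were kept in a loud low tone and recovered for 2 or 4 days, labelled in the study as days post-sound exposure (dpse). Each group was 1 pool of the ears of 18 to 20 fish, hybridized to 3 one-color arrays. The 3 arrays of a group were therefore technical replicates, and every P-value measures the spread between hybridizations of 1 pool and not between fish. In such pooled tissue, fewer cells of a type and less RNA per cell cannot be told apart.

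Values are log2 intensities relative to the median of each array (0). Fold changes are those of a limma fit with terms for group and slide (inferred from arrays that share a scan time), so they can differ a little from the difference of the group means. The call of a significantly regulated probe needed a fold change of 1.4 or more together with a P-value, adjusted over all 21495 probes by Benjamini-Hochberg, no higher than 0.05. Between 39.5% and 56.9% of the spots of an array were well above background, which is the scanner software's mark of a measurable signal. Replicates 2 and 3 of Day 4 had the fewest such spots, and with replicate 3 of the other groups they were in the third scan, taken here as slide 3, which was made on another day. The pituitary marker list had 5 of 7 probes called higher on Day 2 and 4 of 7 on Day 4. The striated muscle list had 1 of 15 and 4 of 15 called lower, and the macrophage and neutrophil list 3 of 13 and 0 of 13 called higher. Of the hair cell markers pvalb8, calb2b, myo7aa and atp2b1a were measured, while otofa and cdh23 were not above background on any array.

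Many of the junction genes were measurable in these ears. Of the 52 probes, 29 (22 genes or transcripts) were well above background on all 9 arrays, 2 (cldn10 and gja9) on some, and 21 on none. Among all probes 37.33% were above background on all 9 arrays. Claudins had 13 of 21 probes measured on all arrays and connexins 6 of 18. All 3 plakoglobin and all 3 tacstd probes were measured on all arrays, as were 3 of 5 cadherins and 1 of the 2 other tight junction genes.

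No junction gene passed the threshold in any comparison. In Day 2:Control 0 of 52 probes were called by limma, against 0.735% of all probes. In Day 4:Control 0 were called against 0.279%, and in Day 4:Day 2 0 against 0.0651%. At an unadjusted P-value alone, 10, 10 and 5 of the 52 passed, against 9.31%, 9.64% and 9.13% of all probes. With the 1.4-fold threshold as well, 3 were higher and 1 lower on Day 2, where 4% of all probes were higher, 1.71% lower and so 5.7% passed. On Day 4 there were 6 above the controls and 0 below, where 5.34% of all probes were above and 1.64% below (6.98% in all). Between the days 2 were higher on Day 4 and 0 lower, against 3.7% and 2.47% (6.16% in all). The methods' paired t-test, adjusted by Benjamini-Hochberg, called 1 of the 52 in Day 2:Control, against 1.03% of all probes, and an unpaired version 3, against 3.42%. In the other comparisons both called 0 of the 52, where the paired form called 0% of all probes and the unpaired form 0.102% (Day 4:Control) and 0.0465% (Day 4:Day 2).

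In Day 2:Control the 3 arrays of one group lay apart from the 3 of the other for 19 of 52 probes (36.5%), 11 higher and 8 lower on Day 2, where 24.4% of all probes did so (15.6% higher and 8.8% lower). In Day 4:Control this held for 16 higher and 2 lower (34.6%), against 19.1% of all probes (15.6% higher and 3.52% lower). In Day 4:Day 2 it held for 9 higher and 1 lower (19.2%), against 18.7% (12.8% and 5.97%). The junction probes were measured more often than all probes, and measured probes lay apart more often. Among junction probes measured in both groups of a comparison, 55.2%, 58.6% and 27.6% lay apart in these 3 comparisons. Of all probes so measured, 42.9%, 32.8% and 31.2% did. The median log2 fold change over the 29 measured probes was 0.07, 0.15 and 0.10 in these comparisons, and over all probes measured on every array 0.05, 0.12 and 0.06. With unmeasured probes included it was 0.14, 0.40 and 0.30 over the 52, and 0.12, 0.29 and 0.24 over all probes. Of the 29 measured on every array (22 genes or transcripts), 10 (8 genes or transcripts) were above every control array on both days. These 10 include 2 overlapping probes for tacstd and 2 for cldn7, which are not independent. A single probe, cx43, was below every control array on both. Of all probes measured on every array, 14.9% were above and 1.63% below on both days.

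**Figure D1:**
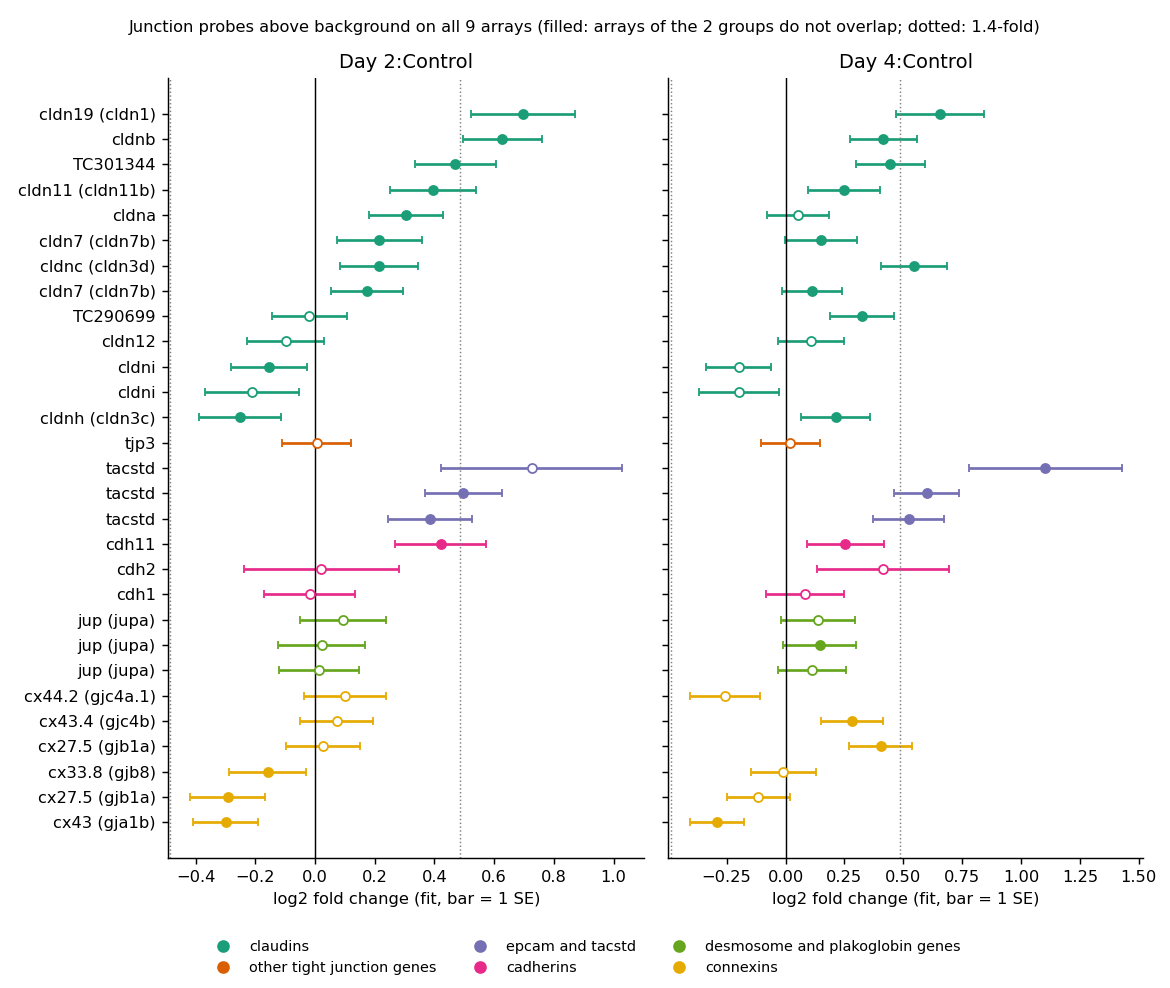
Fitted log2 fold change (x axis, bar of 1 SE) of each of the 29 junction probes above background on all 9 arrays, colored by role, for Day 2:Control (left) and Day 4:Control (right). The highest values, 0.73 on Day 2 and 1.1 on Day 4, are those of the third tacstd probe, which has a low control replicate 1. Claudins reach 0.70 and 0.66, while cx43 lies at -0.30 and -0.29, and no probe passed the adjusted threshold.

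Among the claudins measured on every array, the highest Day 2 differences were those of cldn19 and cldnb. The first was cldn19 (cldn1), whose mammalian counterpart claudin-1 is a component of the skin barrier. Its log2 intensity was 4.55, 4.42 and 4.45 on the control arrays, 5.23, 5.14 and 5.14 on Day 2, and 4.88, 5.48 and 5.14 on Day 4. Every exposed array was above every control array. The fit gave a 1.62-fold higher level on Day 2 (log2 0.70, SE 0.17, adjusted P = 0.215) and 1.58-fold on Day 4 (log2 0.66, SE 0.19, adjusted P = 0.362). Within slides the Day 2 difference was 0.69 to 0.72 on the 3 slides, and the Day 4 difference 0.34 and 0.86 on the 2 slides that held both groups. This probe passed the threshold in Day 2:Control in 8 of the 14 alternative analyses that left out no array.

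The second was cldnb (chr15:10803082-10803141, danRer2), a claudin of zebrafish surface epithelia and the lateral line. Control arrays gave 5.32, 5.29 and 5.33, Day 2 arrays 5.80, 5.91 and 6.12, and Day 4 arrays 5.66, 5.94 and 5.71. The controls differed by less than 0.05, and all 6 exposed arrays lay above them. The level was 1.54-fold higher on Day 2 (log2 0.63, SE 0.13, adjusted P = 0.138) and 1.33-fold on Day 4 (log2 0.41, SE 0.14, adjusted P = 0.442). It passed in Day 2:Control in 6 of the 14 alternatives and in 0 of the 9 fits that each left out 1 array.

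Its neighbor cldnc (cldn3d), with a probe 12209 bases away at chr15:10790813-10790872, was highest on Day 4. Its counterpart in mammals, claudin-3, is a sealing claudin of many epithelia. The arrays gave 4.79, 4.71 and 4.82 in controls, 5.03, 4.94 and 4.99 on Day 2, and 5.21, 5.55 and 5.32 on Day 4. The 3 groups did not overlap in this order. The fitted change was 1.16-fold on Day 2 (log2 0.21, SE 0.13, adjusted P = 0.870) and 1.46-fold on Day 4 (log2 0.54, SE 0.14, adjusted P = 0.321). From Day 2 to Day 4 the difference was log2 0.33 (SE 0.14, adjusted P = 0.569).

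A transcript annotated as similar to mouse claudin-19 (TC301344, chr4:13110076-13110135) read 1.92, 1.77 and 1.89 in controls, 2.51, 2.28 and 2.20 on Day 2, and 2.26, 2.44 and 2.29 on Day 4. Both exposed groups were above the controls, by 1.38-fold on Day 2 (log2 0.47, SE 0.14, adjusted P = 0.296) and 1.36-fold on Day 4 (log2 0.45, SE 0.15, adjusted P = 0.426). In mammals claudin-19 belongs to Schwann cell and kidney tight junctions. After normexp background correction the Day 2 difference of this probe, taken relative to all measured probes, was 0.06, where the other scalings gave 0.42 to 0.45.

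cldna (chr1:33854452-33854511) gave 5.62, 5.68 and 5.84 in controls, 5.96, 5.97 and 6.11 on Day 2, and 5.75, 5.95 and 5.72 on Day 4. Day 2 arrays were above both other groups, 1.23-fold above controls (log2 0.30, SE 0.12, adjusted P = 0.533), and on Day 4 the level was lower than on Day 2 by log2 0.25 (SE 0.13, adjusted P = 0.648). For cldn7 (cldn7b), an epithelial claudin of the zebrafish ear, 2 probes offset by 5 bases on chromosome 10 gave group means of 5.80 and 6.08 in controls, 6.02 and 6.26 on Day 2, and 6.01 and 6.26 on Day 4. Their differences from controls were 0.22 and 0.17 on Day 2 and 0.15 and 0.11 on Day 4, with adjusted P-values from 0.574 to 0.941. cldn11 (cldn11b), chosen after its values were seen, is a counterpart of the claudin of mammalian myelin and of the basal cells of the stria vascularis. Its group means were 3.32 ± 0.09, 3.71 ± 0.06 and 3.63 ± 0.22 (SD, n = 3 arrays) in controls, Day 2 and Day 4. Both exposed groups lay above the controls, 1.31-fold on Day 2 (log2 0.39, SE 0.14, adjusted P = 0.446) and 1.19-fold on Day 4 (log2 0.25, SE 0.15, adjusted P = 0.515).

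**Figure D2:**
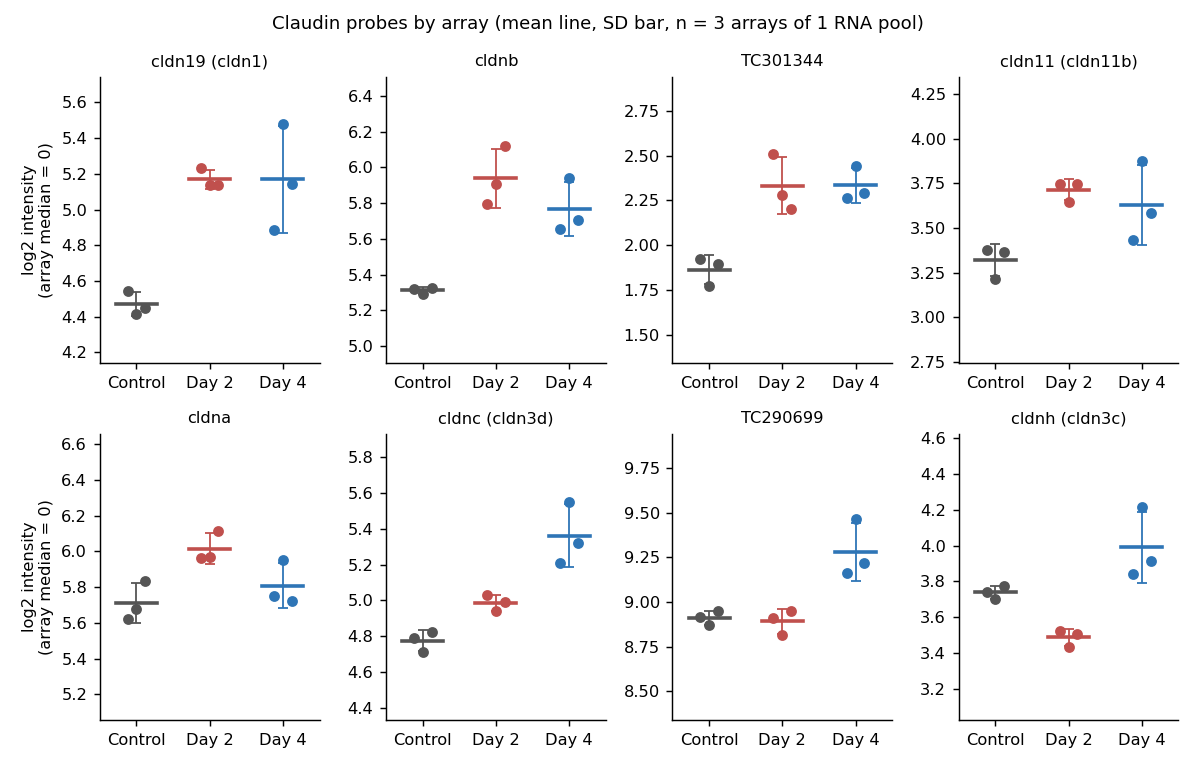
Log2 intensity (y axis, relative to the array median) of 8 claudin probes on the 3 control, 3 Day 2 and 3 Day 4 arrays, with the group mean as a line and the SD as a bar. cldn19, cldnb, TC301344 and cldn11 are above all controls on both days, TC290699 only on Day 4, and cldnh is below the controls on Day 2 (3.43 to 3.52) and above them on Day 4 (3.84 to 4.22).

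Some claudins did not share the Day 2 pattern. A transcript annotated as claudin-like protein ZF-A9 (TC290699, chr24:13089734-13089793) read 8.92, 8.87 and 8.95 in controls, 8.91, 8.82 and 8.95 on Day 2, and 9.16, 9.47 and 9.22 on Day 4. Day 2 overlapped the controls, while all Day 4 arrays were above them, 1.25-fold in the fit (log2 0.32, SE 0.14, adjusted P = 0.515). The probe for cldng, 1594 bases from it, was not above background on any array. cldnh (cldn3c, chr6:31922085-31922144) gave 3.74, 3.70 and 3.77 in controls, 3.52, 3.43 and 3.51 on Day 2, and 3.84, 4.22 and 3.91 on Day 4. It was below the controls on Day 2 (log2 -0.25, SE 0.14, adjusted P = 0.780) and above them on Day 4 (log2 0.21, SE 0.15, adjusted P = 0.515), and the difference between the days was 1.38-fold (log2 0.46, SE 0.15, adjusted P = 0.434). cldn12 and cldni were chosen after their values were seen. cldn12 was at -0.10 on Day 2 and 0.11 on Day 4. The 2 overlapping probes for cldni had fitted differences no lower than -0.21 in both comparisons. On every slide that held both groups they were below the controls, at -0.45 to -0.05 on Day 2 and -0.25 to -0.10 on Day 4.

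cldn10 (cldn10a, chr6:4261486-4261545) was close to the limit of detection and had the lowest Day 2:Control value of the claudins with a measured signal. In mammals claudin-10 forms ion-selective pores between cells. It read 1.49, 1.36 and 1.34 in controls, 0.48, 0.77 and 0.38 on Day 2, and 1.26, 1.14 and 0.86 on Day 4. A measurable signal was present on 3 control, 2 Day 2 and 2 Day 4 arrays. The groups did not overlap, with Day 2 lowest. The fit put Day 2 at 1.80-fold below controls (log2 -0.85, SE 0.15, adjusted P = 0.0933). Every Day 2 value was above the lowest measurable signal of its array. The probe itself was marked measurable on only 2 of the 3 Day 2 arrays, so the size of this difference is uncertain. For Day 4 the fit gave log2 -0.23 against controls (SE 0.16, adjusted P = 0.515). The lowest measurable signal of Day 4 replicate 2 was 1.63, above every control value of this probe. That array could therefore not show a fall, and no lower limit is given for Day 4. From Day 2 to Day 4 the fit gave 0.62 (SE 0.16, adjusted P = 0.342). It passed as lower on Day 2 in 9 of the 14 alternatives and in 0 of the 9 fits that each left out 1 array. Within slides the Day 2 difference was -1.01 to -0.59.

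Epithelial adhesion was represented by tacstd, the tumor-associated calcium signal transducer, of the family of the adhesion protein EpCAM. It has 3 probes that overlap on chromosome 13, between 34951045 and 34951124, so they share a target and are not independent. The first read 5.85, 5.77 and 5.76 in controls, 6.25, 6.27 and 6.36 on Day 2, and 6.34, 6.58 and 6.33 on Day 4. The second read 6.66, 6.49 and 6.60, then 7.00, 6.93 and 6.97, then 6.98, 7.37 and 7.11. The third read 4.29, 5.54 and 5.51, then 5.46, 5.81 and 6.25, then 6.22, 6.43 and 6.0. With the first and second, every exposed array was above every control array, while on the third the first Day 2 array lay among the controls and control replicate 1 stood far below the others.

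The first tacstd probe was 1.41-fold higher on Day 2 (log2 0.50, SE 0.13, adjusted P = 0.236) and 1.51-fold on Day 4 (log2 0.60, SE 0.14, adjusted P = 0.270). The second was 1.31-fold higher (log2 0.39, SE 0.14, adjusted P = 0.450) and 1.44-fold (log2 0.52, SE 0.15, adjusted P = 0.368). The third had the largest Day 4 value of any measured member, 2.15-fold (log2 1.1, SE 0.33, adjusted P = 0.377), which was 0.74 on the log2 scale without control replicate 1 and 0.70 without Day 4 replicate 1. The difference from Day 2 to Day 4 was 0.10 to 0.38 over the 3 probes. The first passed in 4 of the 14 alternatives on each day, with those at an unadjusted P-value included in the 14. It passed in 0 of the 9 fits that each left out 1 array.

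**Figure D3:**
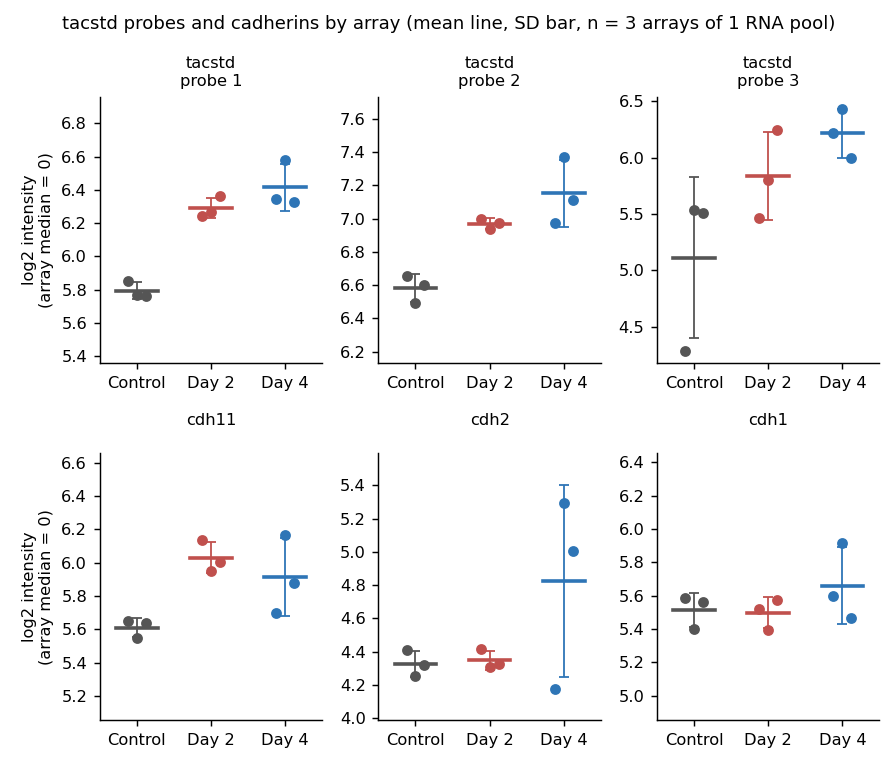
Log2 intensity (y axis, relative to the array median) on each array for the 3 tacstd probes and for cdh11, cdh2 and cdh1, with group means as lines and SDs as bars. The first and second tacstd probes and cdh11 are above all controls on both days, while cdh1 overlaps in all groups and cdh2 is spread from 4.18 to 5.29 on Day 4.

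Of the cadherins, cdh11, a mesenchymal cadherin that is also found in the developing zebrafish ear, was the one separated from the controls. It read 5.65, 5.55 and 5.64 in controls, 6.13, 5.95 and 6.0 on Day 2, and 5.70, 6.17 and 5.88 on Day 4. The level was 1.34-fold higher on Day 2 (log2 0.42, SE 0.15, adjusted P = 0.452) and 1.19-fold on Day 4 (log2 0.25, SE 0.17, adjusted P = 0.515). cdh1 (E-cadherin), the main epithelial cadherin, read 5.51 ± 0.10, 5.50 ± 0.09 and 5.66 ± 0.23 (SD, n = 3 arrays) in controls, Day 2 and Day 4, so that all groups overlapped. cdh2 (N-cadherin), of neural and sensory epithelia, read 4.33 ± 0.08 in controls and 4.35 ± 0.06 on Day 2. On Day 4 its arrays gave 4.18, 5.29 and 5.01, both below and above the controls (log2 0.41, SE 0.28, adjusted P = 0.515). The member probe for cdh5 (VE-cadherin of endothelium) and that for cdh17 were not above background on any array. Another cdh5 probe, with an array name outside the rule and chosen after its values were seen, was measured on 3 control, 3 Day 2 and 2 Day 4 arrays. It read 1.88, 1.74 and 1.97 in controls and 2.08, 2.20 and 2.36 on Day 2 (log2 0.35, SE 0.25, adjusted P = 0.952). On Day 4 it read 2.19, 1.46 and 1.29, both above and below the controls.

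The member probes for junction proteins of the inner side of the membrane showed small differences. Probes for tjp2a, whose array name lies outside the rule, are given further below. Plakoglobin (jup, now jupa), which links cadherins to the cytoskeleton in desmosomes and adherens junctions, had 3 probes overlapping on chromosome 11 between 7714271 and 7714340. Their control means were 7.04 to 7.41, and they differed from controls by 0.01 to 0.09 on Day 2 and 0.11 to 0.15 on Day 4, with an SE of 0.13 to 0.16. tjp3, for zonula occludens protein ZO-3, was the closest to the controls, at 3.54 ± 0.09, 3.54 ± 0.05 and 3.60 ± 0.09. Its log2 fold changes were 0.01 (SE 0.12) and 0.02 (SE 0.12). jam3 (jam3b), a junctional adhesion molecule, was not above background on any array.

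Among the connexins, the separated probes lay below the controls on Day 2. Of the 6 measured connexin probes 3 lay below all controls on Day 2 and 0 above them. Among these 3 is a probe for cx27.5, whose other measured probe overlapped the controls on Day 2. Of the 13 measured claudin probes 8 lay above, with both overlapping cldn7 probes among them, and 2 below. Of all probes measured on every array 29.5% lay above and 12.9% below. The difference between the 2 families was not tested. cx43 (gja1b), the connexin 43 that many tissues share, read 6.71, 6.62 and 6.68 in controls, 6.42, 6.31 and 6.39 on Day 2, and 6.40, 6.37 and 6.43 on Day 4. All 6 exposed arrays lay below all controls, and the exposed groups differed from each other by 0.01 (SE 0.12). The level was 1.23-fold lower on Day 2 (log2 -0.30, SE 0.11, adjusted P = 0.443) and 1.22-fold on Day 4 (log2 -0.29, SE 0.12, adjusted P = 0.511). Within slides it was -0.32 to -0.29 on Day 2 and -0.30 and -0.28 on Day 4. It did not pass in any of the 14 alternatives. In the glia and myelin list 3 of 19 probes, all for gfap, were called lower on Day 2 and 0 on Day 4. The list as a whole had a median log2 fold change of 0.14 on Day 2 and 0.08 on Day 4. Its summed linear signal was 2625 to 2827 in controls, 2535 to 2819 on Day 2 and 2671 to 3596 on Day 4. The part of glia in the connexin values was not tested.

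cx33.8 (gjb8), a beta connexin, read 6.64, 6.56 and 6.62 in controls and 6.46, 6.41 and 6.47 on Day 2, a fitted difference of -0.16 (SE 0.13, adjusted P = 0.952). On Day 4 it read 6.82, 6.51 and 6.45, overlapping the controls. cx27.5 (gjb1a), a relative of the mammalian connexin 32 of myelinating cells, had 2 probes on chromosome 5 that disagreed. The first, at 12529837, read 5.18, 5.05 and 5.12 in controls, 4.78, 4.81 and 4.88 on Day 2, and 4.96, 5.18 and 4.96 on Day 4. The second, at 12530005, read 4.47, 4.45 and 4.63, then 4.50, 4.45 and 4.68, then 4.88, 5.17 and 4.91. By the first the gene was lower on Day 2 (log2 -0.29, SE 0.13, adjusted P = 0.581) and at -0.11 on Day 4. By the second it was at 0.03 on Day 2 and higher on Day 4 (log2 0.40, SE 0.13, adjusted P = 0.431), so no direction is given for it. The 2 agreed only between the days, where both were higher on Day 4, by 0.18 and 0.38.

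cx43.4 (gjc4b), a gamma connexin of the early zebrafish embryo, read 3.84, 3.71 and 3.85 in controls, 3.89, 3.82 and 3.90 on Day 2, and 4.00, 4.29 and 4.10 on Day 4. Day 4 was above both other groups, 1.22-fold over controls (log2 0.28, SE 0.13, adjusted P = 0.515). Its relative cx44.2 (gjc4a.1), chosen after its values were seen, was at 0.10 on Day 2 and -0.26 on Day 4, with overlapping arrays. Its sign differed from that of cx43.4 on Day 4 only. gja9 (gjd2b), of the connexin 35 type found in electrical synapses, was likewise chosen after its values were seen. It was above background on 1 control, 0 Day 2 and 1 Day 4 array, with control values of -0.32, -0.02 and 0.49, Day 2 values of -0.46, -1.37 and -1.73, and Day 4 values of 0.22, 0.00 and 1.34. The Day 2 arrays were the lowest, but no size of change is given because neither group was measured on all its arrays.

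**Figure D4:**
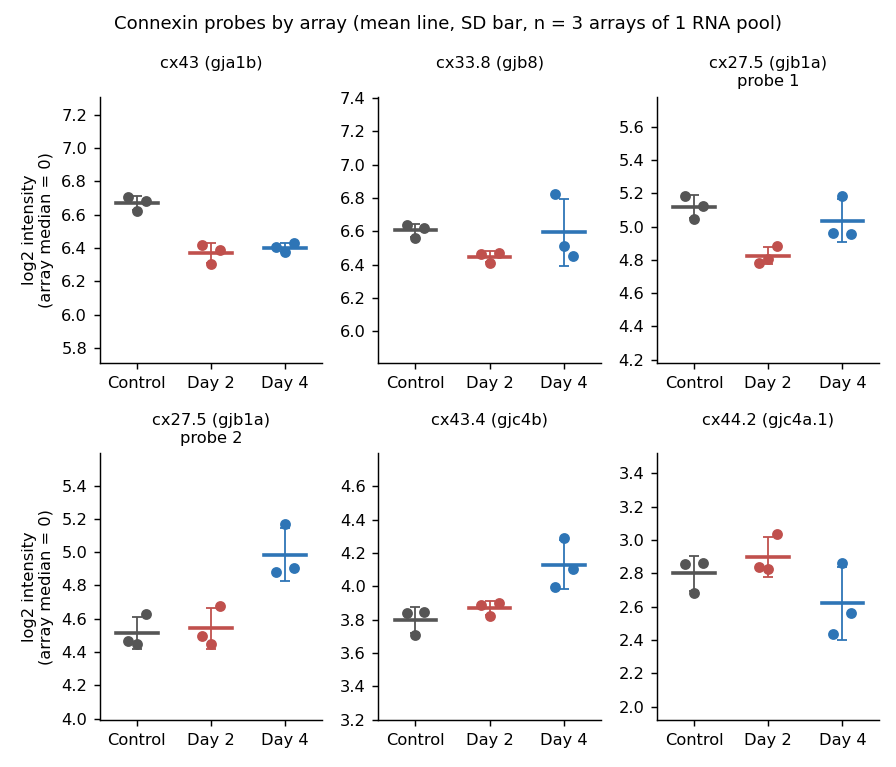
Log2 intensity (y axis, relative to the array median) on each array for 6 connexin probes, with group means as lines and SDs as bars. cx43 is below all controls on both days (6.31 to 6.43 against 6.62 to 6.71), and the 2 probes of cx27.5 differ in which day departs from the controls.

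The 21 probes not above background on any array included those for cldnd, cldne, cldng, cldn10l (cldn15la), 3 further claudin-like transcripts, cx28.6 (2 probes), cx34.4, cx39.9, cx44.1, cx45.6, cx52.6, cx55.5, gja3, a connexin transcript (TC295013), cdh5, cdh17 and jam3. cx44.1 (gja8b) and gja3 are connexins of the lens, and cx52.6 and cx55.5 of the horizontal cells of the retina. The lens and retina marker list likewise had 0 of 12 probes above background. The median signal of the 21 varied between the arrays of each group, at -3.15, -2.89 and -1.91 in controls, -2.26, -3.25 and -1.98 on Day 2, and -2.79, -0.56 and -1.45 on Day 4. It was highest on the arrays of slide 3, which held replicates 2 and 3 of Day 4, so slide and group are partly mixed. The median fitted difference of the 21, 0.17 on Day 2 and 0.62 on Day 4, is no measure of expression.

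Directions of small differences depended on how the arrays were scaled. In Day 2:Control the fit gave 20 of the 29 measured probes as positive, while scaling to the 75th percentile, to the median of measured probes or by quantiles gave 15, 14 and 14. Normexp background correction gave 29 of 29, and the median of all measured probes was 0.42 with it and 0.05 in the fit. In Day 4:Day 2 that median was -0.55 with normexp and 0.06 in the fit, and 0 of 29 were positive with normexp. Relative to the median of all measured probes, the named differences were steadier. The fit, the 75th percentile and the median of measured probes differ only by a constant per array. Their values relative to that median are therefore equal by construction, and only quantiles and normexp could give other values. cldn19 was 0.65 above it on Day 2 under all 5 scalings, cldnb 0.56 to 0.59, the first tacstd probe 0.43 to 0.51 and cdh11 0.35 to 0.43. cx43 was -0.37 to -0.26 on Day 2 and -0.45 to -0.41 on Day 4, and cldnh was -0.31 to -0.28 on Day 2 and 0.08 to 0.10 on Day 4. On Day 4 cldna (-0.15 to -0.06) and the second cldn7 probe (-0.12 to -0.0038) lay below that median under all 5, although their fitted differences from controls were positive.

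**Figure D5:**
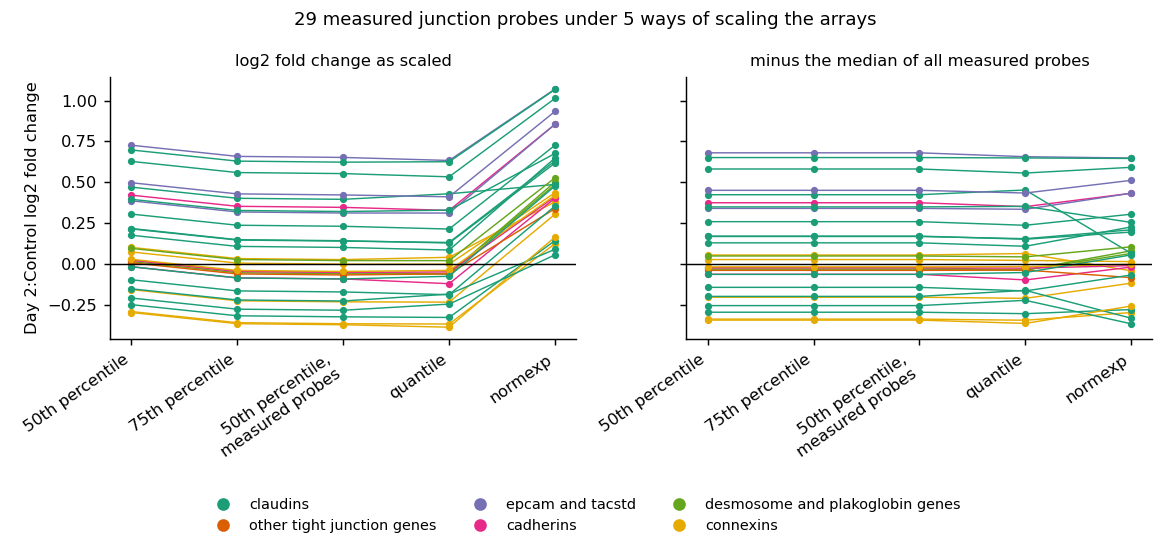
Day 2:Control log2 fold change (y axis) of the 29 measured junction probes under 5 scalings of the arrays (x axis), colored by role, as scaled (left) and after subtracting the median of all measured probes (right). Normexp lifts all 29 above 0 on the left, and on the right most probes keep their place. On the right the percentile scalings coincide by construction, so only the quantile and normexp values could differ from them.

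Other genes of cell junctions gave no call either. Of 79 listed genes (catenins, polarity proteins, scaffolds and others), 25 were matched by 31 probes, of which 14 were above background on all arrays and 0 were called in each comparison. Their median log2 fold changes were 0.04, 0.10 and 0.13. A further 32 probes carry array names outside the rule but present symbols inside it, and 0 of them were called. Of these, cldn5b, a counterpart of the claudin of vascular endothelium, had 2 probes at 0.63 and 0.65 on Day 2 (SE 0.15 and 0.16, adjusted P = 0.206 and 0.205) and 0.65 on Day 4 by both. In the other direction, 2 probes for tjp2a were at -0.34 and -0.25 on Day 2 (SE 0.18 and 0.14, adjusted P = 0.774 and 0.826). On Day 4 they were at 0.05 and -0.07. A probe for cldnd1a was at -0.38 on Day 2 (SE 0.15, adjusted P = 0.518) and -0.04 on Day 4. The cldn5b, tjp2a and cldnd1a probes were chosen after their values were seen. The summed linear signal of the endothelium list, which holds another probe for cdh5, was 58.7 to 63.8 in controls, 78.6 to 83.3 on Day 2 and 67.9 to 85.0 on Day 4 (relative to the array median of 1). In controls 6 of its 7 probes were measured, but only 3 were above background on all 9 arrays and 1 was on none. Of the 7, 0 were called. The epithelial list of keratins and others was at 5638 to 5967, 5833 to 6434 and 5930 to 8349, with 0 of 27 probes called. The part of either cell type in the claudin and tacstd values was not tested.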

How the data were processed

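Single-color Agilent arrays of pooled adult zebrafish inner ear RNA were analysed, 3 each for control, Day 2 and Day 4, each pool hybridized 3 times. The authors deposited the processed intensity of each spot from Agilent Feature Extraction 9.5.1, corrected for background within the array and not scaled between arrays. Their tables of fold changes and P-values for each comparison were not used. Control and outlier spots were left out, and the log2 intensities, less the 50th percentile of their array, were averaged over both spots of a probe (21495 probes). Weak probes were kept. A single member is counted but not reported by name here.

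limma 3.58.1 (lmFit and eBayes, R 4.3.3) was fitted to all 9 arrays with terms for group and slide. The slide was a term because the methods describe plates that each carry all time points. It was inferred from the scan time: the first scan holds replicate 1 of each group, the second replicate 2 of controls and Day 2, and the third the other 4 arrays. The methods' layout would put Day 4 replicate 2 with the second scan, so the assignment of that array is uncertain, as are within-slide Day 4 differences. The replicate number in place of the slide was an alternative. Adjusted P-values come from this model except where a sentence names another test. The number of arrays limits the precision.

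Same-numbered control and Day 2 arrays, which share a scan, deviated together over measured probes (correlations of 0.50, 0.27 and 0.54), and Day 4 arrays did not with either (-0.06 to 0.12). The members and all gene lists were chosen with earlier results of these data known. Described in full were, per role, the 3 largest differences in Day 2:Control and the 2 largest in each other comparison among measured probes with arrays apart, and a list of textbook genes. Other members are given by counts, or named as chosen after their values were seen. Present symbols are from the RefSeq table of GRCz12tu (43 of 52 probes matched) and positions are from the deposited files on danRer2. Cross-hybridization between similar claudins or connexins was not tested, and no probe or gene sequence was used here. Alternatives were other scalings, background correction, filters, variance models, terms for slide or replicate, the paired and unpaired t-tests, and leaving out each array. All tests were two-sided. Other software was Python 3.11.15 with pandas 2.3.3, and matplotlib 3.10.9 for the plots.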

Additional observations from a re-analysis of the deposited data

Results flagged for a closer look

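cldnh (cldn3c) was singled out because every Day 2 array lay below every control array and every Day 4 array above them. Its difference between Day 4 and Day 2 was 0.46 on the log2 scale (SE 0.15, adjusted P = 0.434 by limma over all probes), so that the test of the difference did not pass. Over the 9 fits that each left out 1 array it was 0.37 to 0.55. The reason for the pattern was not tested.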

How the results depend on the processing

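The 0 calls among the 52 members held in all 3 comparisons after normexp correction, with outlier spots kept, with only the 6 arrays compared, with the replicate number as a block in place of the slide (0, 0 and 0), with the 32 further probes added, and in the 9 fits that each left out 1 array (0 to 0). Of all probes, normexp called 0.00465%, 0% and 0%, outlier spots kept 0.73%, 0.274% and 0.0651%, and only 6 arrays 0.0512%, 0.116% and 0%. The replicate block called 0.414%, 0.265% and 0.0605%. The fits without 1 array called 0.0186% to 2.69% in Day 2:Control, 0.014% to 0.372% in Day 4:Control and 0% to 0.0279% in Day 4:Day 2. In Day 2:Control the count was 3 with the 75th percentile, the median of measured probes (chosen after seeing the data) or quantile normalization (2.93%, 2.93% and 3.62% of all probes called), 1 with no replicate block and no slide term (2.35%) or with a filter on dim probes (3.05% of those tested), and 6 with a variance trend and robust estimation (4.72%). The methods' t-test at the unadjusted threshold gave 4 (paired, 5.34% of all probes) and 5 (unpaired, 5.75%), and after Benjamini-Hochberg 1 and 3. In Day 4:Control it was 1 with quantile normalization (2.25%) or without slide term (1.39%), 5 with the variance trend (4.53%), and 2 (paired, 3.15%) and 4 (unpaired, 5.1%) by unadjusted t-tests. In Day 4:Day 2 it was 1, 2, 1 and 3 with quantile normalization, the variance trend and the unadjusted paired and unpaired t-tests (2.93%, 4.48%, 2.94% and 4.92%). The replicate block was used only as an alternative to the slide. Over measured probes the Day 4 arrays did not deviate with the same-numbered arrays of other groups. Nor did they deviate with other groups' arrays on their own slide (correlations of -0.02 to 0.12). Over measured probes the Day 4 arrays therefore favored neither block. With unmeasured probes included, Day 4 replicate 2 had correlations of 0.73 and 0.68 with replicate 3 of controls and Day 2, on its slide. With replicate 2 of those groups they were -0.33 and -0.76. Other pairs did not follow the slide on this measure. On slide 1 the correlations between groups ranged from -0.53 to 0.74, and Day 2 replicate 2 and Day 4 replicate 1, on different slides, reached 0.82.

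Over 39 named fold changes and 897 alternative values, 20 turned their sign and 41 newly passed. Of these 41, 6 and 9 passed by the paired and unpaired t-tests at an unadjusted P-value. Normexp turned 17. In Day 2:Control it gave cldnh 0.14, cx27.5 (first probe) 0.12, cx33.8 0.30 and cx43 0.16. In Day 4:Control it gave cdh11 -0.055, cldn7 -0.14 and -0.24, cldnh -0.028, TC290699 -0.011, cx43.4 -0.025 and jup -0.18. In Day 4:Day 2 it gave cldnc -0.46, cldnh -0.17, TC290699 -0.49, cx27.5 -0.50 and -0.37, and cx43.4 -0.46. The second cldn7 probe in Day 4:Control was -0.0073 with the median of measured probes and -0.029 with quantiles, and jup was -0.017 with quantiles. Weak signal limits cldn10, gja9 and the 21 unmeasured probes.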
